A study of Mus musculus with 40 samples.

Results

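The cardiac muscle genes of mouse lung are described here in 9 members, Tnni3, Tnnt2, Actc1, Myh6, Myl7, Myl4, Pln, Sln and Nppa. Probe sets were matched to them by gene symbol. Of 22690 probe sets on the array, 15 carried 1 of these symbols alone, and 9 of the 12393 genes tested were members. A probe set is the group of oligonucleotides that together measure a transcript, and for each gene the probe set with the highest mean stands for it. Another 2 probe sets, shared by Myh6 and Myh7, stood for no gene.

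RNA of whole lung from C3H and AJ mice was measured on 40 1-colour Affymetrix arrays, in 8 groups of 5. The groups were C3H allergen 6 h, C3H PBS 6 h, C3H allergen 24 h, C3H PBS 24 h, AJ allergen 6 h, AJ PBS 6 h, AJ allergen 24 h and AJ PBS 24 h. Hours count the time after aspiration of allergen in phosphate-buffered saline (PBS) or of PBS alone, so every group, controls included, had aspirated PBS. The labels call the AJ strain hyperresponsive. The allergen is OVA in the titles and HDM in the descriptions, and the strain was read from the titles because all descriptions name AJ. The labels used here give no age, sex or dissection, and do not state whether the 5 arrays of a group come from different animals. The p-values then speak only of the variation among these arrays, which may be technical. Array medians ran from 63.7 to 81.3 intensity units, and precision is set by having 5 arrays a group. Genes of lung parenchyma, the labelled tissue, were bright on every array, with a mean over 10 genes of 10.66 to 11.25 on the scale log2(intensity + 16).

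In mice and other rodents, the wall of the pulmonary veins holds a sleeve of cardiac muscle that is continuous with the left atrium and runs into the lung. Its cells contract through the same filaments as the heart. Troponins on the thin filament respond to calcium, myosin heads of the thick filament pull, small membrane proteins set how fast the calcium pump refills the stores, and atrial cells release a hormone that lowers blood volume and pressure. In whole-lung RNA, cardiac muscle of the veins and cardiac muscle of an atrium left on the lung cannot be told apart, nor can fewer muscle cells and less RNA per cell.

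The promoters of the members that passed a test, 4 with allergen and Actc1 between strains, are shown first, to give the letters before the start sites of the genes with a call. The RefSeq table of mouse assembly GRCm38.p6 held a window of 250 bases before to 50 bases after the start site for 8 of the 9 members, with 2 windows for Tnnt2. Sln is named only. Letters in capitals mark matches on either strand to motifs of cardiac and muscle transcription factors.
Tnni3 (chr7:4522479-4522778, - strand): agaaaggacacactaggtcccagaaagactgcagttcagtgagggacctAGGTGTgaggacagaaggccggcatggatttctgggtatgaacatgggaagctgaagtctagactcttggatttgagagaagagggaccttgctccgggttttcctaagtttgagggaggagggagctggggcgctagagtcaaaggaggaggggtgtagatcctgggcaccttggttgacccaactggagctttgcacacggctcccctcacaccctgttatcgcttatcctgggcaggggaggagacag
Myl7 (chr11:5898733-5899032, - strand): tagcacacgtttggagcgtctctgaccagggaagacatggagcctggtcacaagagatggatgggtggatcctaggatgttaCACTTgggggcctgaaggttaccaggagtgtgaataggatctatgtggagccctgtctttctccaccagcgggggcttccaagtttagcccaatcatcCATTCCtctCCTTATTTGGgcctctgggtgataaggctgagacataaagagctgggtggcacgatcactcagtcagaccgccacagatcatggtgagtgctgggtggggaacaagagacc
Myl4 (chr11:104550413-104550712, + strand): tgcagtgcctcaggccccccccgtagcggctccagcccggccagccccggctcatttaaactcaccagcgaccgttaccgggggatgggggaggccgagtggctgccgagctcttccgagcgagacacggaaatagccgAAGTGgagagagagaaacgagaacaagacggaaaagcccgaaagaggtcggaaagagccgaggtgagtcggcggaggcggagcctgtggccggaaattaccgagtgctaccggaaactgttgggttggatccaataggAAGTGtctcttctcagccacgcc
Myh6 (chr14:54966558-54966857, - strand): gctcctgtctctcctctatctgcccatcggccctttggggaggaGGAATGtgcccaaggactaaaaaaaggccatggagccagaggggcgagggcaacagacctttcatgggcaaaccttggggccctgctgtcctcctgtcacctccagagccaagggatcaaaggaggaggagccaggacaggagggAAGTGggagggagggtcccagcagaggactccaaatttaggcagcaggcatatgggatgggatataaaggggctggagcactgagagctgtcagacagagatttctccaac
Actc1 (chr2:114052826-114053125, - strand): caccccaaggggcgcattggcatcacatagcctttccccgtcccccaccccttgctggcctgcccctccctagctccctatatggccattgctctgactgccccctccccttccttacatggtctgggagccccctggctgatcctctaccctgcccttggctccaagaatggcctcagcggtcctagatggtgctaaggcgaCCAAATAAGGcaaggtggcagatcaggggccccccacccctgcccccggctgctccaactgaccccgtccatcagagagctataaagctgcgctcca

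The motifs searched were the MEF2 site, AGATAA for GATA factors, CATTCC for TEAD factors, AGGTGT for TBX5, AAGTG for NKX2-5, and the CArG box of serum response factor. The CArG box was found in Myl7 and Actc1, that is in 2 of the 9 windows, against 1.629% of all 32851 windows in the table. TEAD letters were in 3 of the 9 windows (14.663% of all), GATA letters in 2 (11.178% of all) and TBX5 letters in 2 (13.741% of all). NKX2-5 letters were in 5 (46.379% of all) and the MEF2 site in 0 (3.686% of all). In Myl7 the TEAD and CArG matches lie 3 bases apart, and none of the matches in the 5 windows shown overlap. A match describes letters in the reference strain, and the arrays carry no measurement of binding.

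All levels below are means of log2(intensity + 16) with the standard deviation (SD) over 5 arrays. Levels of different genes are not set against each other, since probe sets differ in brightness. Among the thin filament genes, Tnni3 encodes cardiac troponin I, the inhibitory subunit that holds the filament off until calcium binds. In C3H lungs its level was 7.75 ± 0.68 with allergen and 8.50 ± 0.38 with PBS at 6 h, and 8.27 ± 0.63 with allergen and 8.36 ± 0.27 with PBS at 24 h. AJ lungs had 7.82 ± 0.76 with allergen and 8.23 ± 0.20 with PBS at 6 h, and 6.60 ± 0.87 with allergen and 8.19 ± 0.45 with PBS at 24 h. The AJ allergen 24 h group was the lowest, and its gap to the next group up, C3H allergen 6 h, was larger than the SD of either group.

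Tnnt2 encodes cardiac troponin T, which ties the troponin complex to tropomyosin. Its C3H levels were 8.34 ± 0.48 with allergen and 8.77 ± 0.23 with PBS at 6 h, and 8.69 ± 0.59 with allergen and 8.58 ± 0.21 with PBS at 24 h. Its AJ levels were 8.50 ± 0.84 with allergen and 8.63 ± 0.13 with PBS at 6 h, and 7.86 ± 0.89 with allergen and 8.60 ± 0.41 with PBS at 24 h. No neighbours in the order of its groups lay further apart than the larger of their SDs. Its brightest probe set carries the suffix that Affymetrix gives where probes can match other transcripts.

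Actc1 encodes cardiac alpha actin, the filament itself. Levels in C3H were 9.69 ± 0.61 with allergen and 10.31 ± 0.30 with PBS at 6 h, and 10.31 ± 0.47 with allergen and 10.23 ± 0.20 with PBS at 24 h. Levels in AJ were 9.11 ± 0.74 with allergen and 9.36 ± 0.17 with PBS at 6 h, and 8.91 ± 0.24 with allergen and 9.27 ± 0.35 with PBS at 24 h. The 4 C3H groups held the upper places and the 4 AJ groups the lower ones, an order seen in none of the other 8 genes.

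Myh6 encodes alpha myosin heavy chain, the motor of the thick filament in adult mouse heart. C3H lungs had 8.49 ± 0.73 with allergen and 9.09 ± 0.46 with PBS at 6 h, and 9.12 ± 0.75 with allergen and 8.78 ± 0.43 with PBS at 24 h. In AJ lungs the level was 8.74 ± 0.90 with allergen and 9.09 ± 0.14 with PBS at 6 h, and 7.69 ± 0.92 with allergen and 8.98 ± 0.65 with PBS at 24 h. No neighbouring groups of Myh6 were further apart than the larger SD.

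Myl7, the atrial regulatory light chain of myosin, stood at 8.95 ± 0.50 with allergen and 9.73 ± 0.24 with PBS in C3H at 6 h, and at 9.57 ± 0.63 with allergen and 9.34 ± 0.28 with PBS at 24 h. The same gene stood at 9.68 ± 0.84 with allergen and 9.90 ± 0.17 with PBS in AJ at 6 h, and at 8.39 ± 0.70 with allergen and 9.81 ± 0.44 with PBS at 24 h. Myl4, the atrial essential light chain, had 9.24 ± 0.63 with allergen and 9.95 ± 0.33 with PBS in C3H at 6 h, and 9.68 ± 0.62 with allergen and 9.61 ± 0.24 with PBS at 24 h. Both light chains were lowest in AJ lungs 24 h after allergen. For Myl4 the AJ values were 9.09 ± 0.86 with allergen and 9.28 ± 0.18 with PBS at 6 h, and 8.03 ± 0.67 with allergen and 9.39 ± 0.43 with PBS at 24 h.

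Pln encodes phospholamban and Sln sarcolipin, both small inhibitors of the calcium pump of the sarcoplasmic reticulum. Pln had 6.73 ± 0.22 with allergen and 7.30 ± 0.24 with PBS in C3H at 6 h, and 7.04 ± 0.25 with allergen and 7.13 ± 0.12 with PBS at 24 h. Its levels in AJ were 7.17 ± 0.91 with allergen and 7.15 ± 0.24 with PBS at 6 h, and 6.54 ± 0.37 with allergen and 7.17 ± 0.48 with PBS at 24 h. Sln is made by atrial muscle and by some skeletal muscle too. It had 8.11 ± 0.27 with allergen and 8.13 ± 0.53 with PBS in C3H at 6 h, and 8.70 ± 0.83 with allergen and 8.32 ± 0.55 with PBS at 24 h. Its AJ levels were 8.24 ± 1.32 with allergen and 8.08 ± 0.53 with PBS at 6 h, and 7.87 ± 0.42 with allergen and 8.96 ± 0.34 with PBS at 24 h. The AJ PBS 24 h group was the highest for Sln and the AJ allergen 24 h group the lowest.

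Nppa encodes the precursor of atrial natriuretic peptide. In C3H it had 6.56 ± 0.56 with allergen and 6.87 ± 0.45 with PBS at 6 h, and 8.07 ± 1.66 with allergen and 6.56 ± 0.58 with PBS at 24 h. In AJ it had 8.25 ± 2.04 with allergen and 7.81 ± 0.52 with PBS at 6 h, and 6.73 ± 0.90 with allergen and 7.98 ± 1.20 with PBS at 24 h. Nppa was the only member whose lowest mean was not in AJ lungs 24 h after allergen. Over the 9 genes, 4 of 63 neighbouring groups were further apart than the larger SD, 1 each for Tnni3, Myl4, Nppa and Pln.

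**Figure D1:**
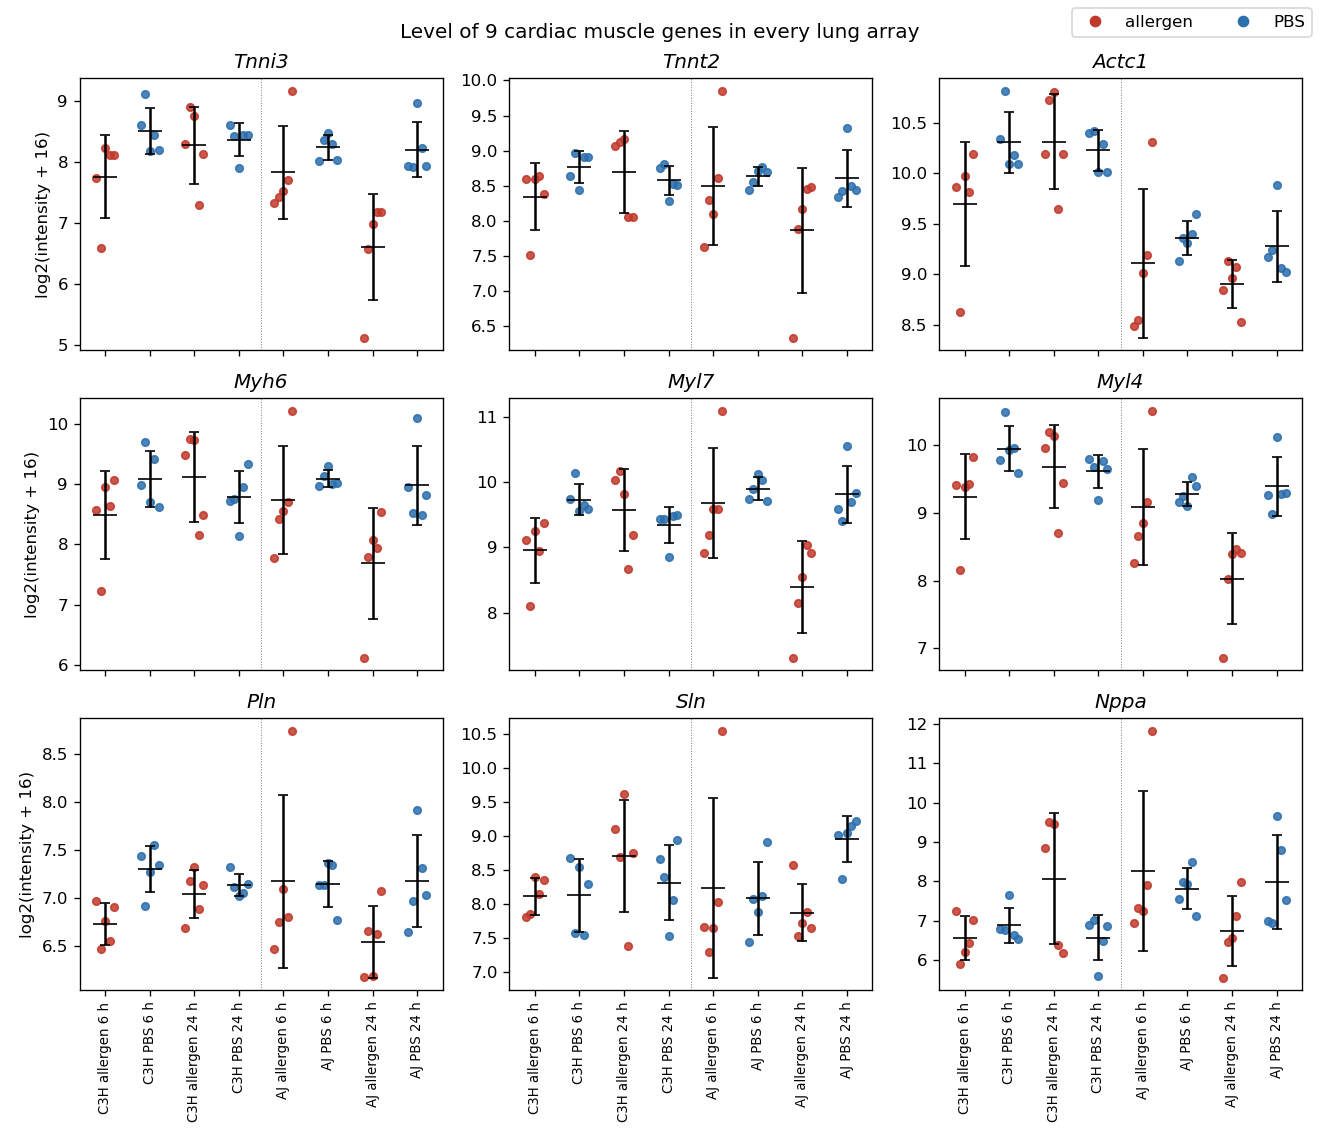
Level of each of the 9 genes, as log2(intensity + 16) on the vertical axis, in the 8 groups on the horizontal axis. Each point is an array, red for allergen and blue for PBS, and the black marks are the mean and SD of 5 arrays. AJ lungs 24 h after allergen have the lowest mean for 8 of the 9 genes, and 1 AJ array 6 h after allergen is the highest of its group in all 9.

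In AJ mice 24 h after aspiration, 4 of the 9 genes fell with allergen, and 0 rose. Of all 12393 genes, 7.84% passed in this comparison in either direction and 3.28% passed as lower. A gene is said to have risen or fallen where its adjusted p from limma, by Benjamini-Hochberg over all genes, was under 0.05, two-sided. The 4 were the troponin subunit Tnni3, both atrial light chains and the myosin heavy chain Myh6. All 9 fold changes were below 0, with a median of -1.24 on the log2 scale against -0.0043 over all genes tested, and 7 of the 9 had an unadjusted p under 0.05.

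Tnni3 intensity was 18.6, 79.3, 109.7, 129 and 129 in the AJ allergen arrays at 24 h, against 229, 224, 483, 284 and 228 in the AJ PBS arrays. No allergen array reached the lowest PBS array. The level was 3.01-fold lower with allergen (log2 fold change -1.59 ± 0.34, limma standard error, adjusted p = 0.00179). Groups failed to overlap for 8.67% of all genes in this comparison, and as lower for 3.86%, while they did so for 3 of the 9, Tnni3, Myl7 and Myl4.

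Myl7 intensity was 143, 267, 359, 509 and 469 with allergen, against 751, 659, 1482, 815 and 893 with PBS in AJ at 24 h. All 5 allergen arrays were below all 5 PBS arrays. The fall was 2.67-fold (log2 fold change -1.42 ± 0.31, limma adjusted p = 0.00229). Myl4 intensity was 100.6, 246, 320.5, 337 and 322 with allergen, against 600.2, 491, 1101, 605 and 608 with PBS. Myl4 groups did not overlap either, and the fall was 2.56-fold (log2 fold change -1.36 ± 0.32, limma adjusted p = 0.00491).

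Myh6 intensity was 53.8, 205, 252, 228 and 353 with allergen, against 480, 353, 1079, 345 and 436 with PBS in AJ at 24 h. Replicate 5 with allergen lay above the 2 lowest PBS arrays, so these groups overlapped. The fall was 2.44-fold (log2 fold change -1.29 ± 0.40, limma adjusted p = 0.0377). This call was lost in 5 of the 10 fits without 1 array. The limma adjusted p was 0.192 without AJ allergen 24 h replicate 1, 0.0623 without AJ allergen 24 h replicate 2, 0.16 without AJ PBS 24 h replicate 3, 0.0626 without AJ PBS 24 h replicate 1 and 0.0541 without AJ PBS 24 h replicate 5.

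The other 5 genes did not pass in AJ at 24 h. Nppa intensity was 30.8, 72, 78.6, 123 and 238 with allergen, against 111, 107, 791, 427 and 167 with PBS, and its log2 fold change was -1.24 ± 0.67 (limma adjusted p = 0.333). Sln intensity was 367, 169, 196, 219.8 and 185 with allergen, against 503, 315, 514, 548 and 581 with PBS. Only replicate 1 of the Sln allergen arrays lay above the lowest PBS array, and the log2 fold change was -1.09 ± 0.40 (limma adjusted p = 0.0983). Log2 fold changes were -0.74 ± 0.32 for Tnnt2, -0.63 ± 0.26 for Pln and -0.37 ± 0.26 for Actc1, with limma adjusted p-values of 0.19, 0.145 and 0.506.

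Other probe sets of the members were read in a fit over all probe sets. In AJ at 24 h, the brighter of the probe sets shared by Myh7 and Myh6 fell by 1.33 on the log2 scale (limma adjusted p = 0.014). The dimmer sets gave log2 fold changes of -0.97 for Tnnt2, -0.68 and -0.16 for Pln, -0.61 for Myh6, -0.94 for the dimmer set shared with Myh7 and -0.29 for Sln, and none of these passed. The dim second Myl4 set ran against the bright one: it was 0.55 higher with allergen in AJ at 24 h (limma adjusted p = 0.114) and fell by 0.87 in C3H at 24 h (limma adjusted p = 0.0133). With the mean of all probe sets of a gene in place of the brightest, 2 of the 9 genes passed in AJ at 24 h, Tnni3 and Myl7.

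In AJ mice 6 h after aspiration, 0 of the 9 genes passed with limma and 0 had an unadjusted p under 0.05, while 19% of all genes passed. Of the 9 fold changes, 3 were above 0 and 6 below, with a median of -0.20. The group was spread by replicate 5, which was the highest array for all 9 genes and 1 of 2 arrays whose titles carry the letter b. Nppa intensity was 107, 143, 136, 225 and 3644 in the AJ allergen 6 h arrays, against 171, 236, 226, 345 and 123 in the AJ PBS 6 h arrays. Sln intensity was 187, 141, 185, 245 and 1479 with allergen, against 158, 253, 221, 261 and 464 with PBS. The 4 other allergen arrays of both genes lay within or below the range of the PBS arrays. Without replicate 5 the log2 fold changes of Nppa, Sln and Pln changed sign, to -0.46, -0.42 and -0.37, and the count with limma was still 0 of 9.

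In C3H mice at 6 h, 0 of 9 genes passed with limma against 7.62% of all genes, and 5 had an unadjusted p under 0.05. All 9 fold changes were below 0, with a median of -0.60 and a range of -0.78 to -0.02. Myl7 intensity was 535, 258, 594, 477 and 644 with allergen, against 839, 1107, 735, 785 and 753 with PBS in C3H at 6 h. These groups did not overlap, while the limma adjusted p was 0.14 for a log2 fold change of -0.78 ± 0.31. Groups of this comparison did not overlap for 5.7% of all genes.

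In C3H mice at 24 h, 0 of 9 genes passed with limma against 3.24% of all genes, and 1, Nppa, had an unadjusted p under 0.05. Fold changes were above 0 for 7 genes and below 0 for 2, with a median of 0.12. Nppa intensity was 446, 713, 682, 66.9 and 55.9 in the C3H allergen 24 h arrays, against 101, 113, 32.1, 73.1 and 100.04 in the C3H PBS 24 h arrays. Allergen replicates 1, 2 and 3 lay above all PBS arrays, and replicates 4 and 5 lay inside their range. The log2 fold change of Nppa was 1.51 ± 0.67 (limma adjusted p = 0.224).

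**Figure D2:**
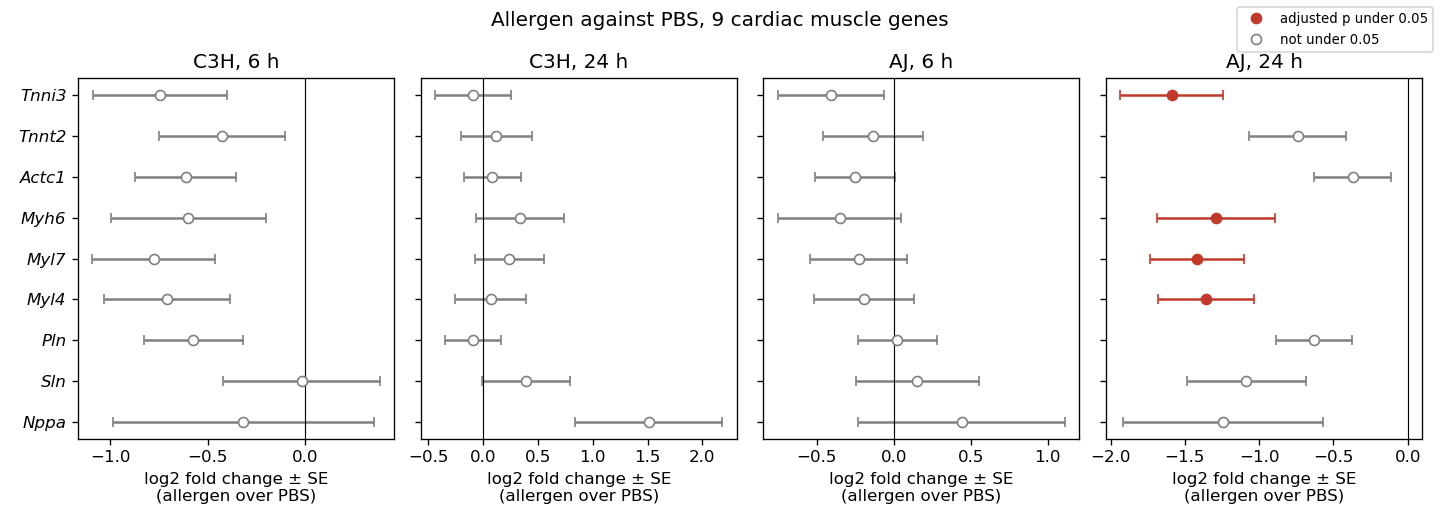
Log2 fold change of each of the 9 genes, allergen over PBS, on the horizontal axis with its limma standard error, in C3H at 6 h and 24 h and in AJ at 6 h and 24 h, each panel on its own scale. Red points have an adjusted p under 0.05: they are Tnni3, Myh6, Myl7 and Myl4 in AJ at 24 h, at -1.59, -1.29, -1.42 and -1.36.

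The difference of the allergen effect between strains, C3H minus AJ, was tested as a term of its own. At 24 h, 0 of 9 genes passed with limma, against 0.46% of all genes, and 6 had an unadjusted p under 0.05. All 9 differences were above 0, with a median of 1.48 on the log2 scale. Myl7 had the lowest p, with a difference of 1.65 ± 0.45 (limma adjusted p = 0.0848), and Nppa the largest difference, 2.75 ± 0.95 (limma adjusted p = 0.197). Without C3H allergen 24 h replicate 4, 2 genes passed, Myl7 and Myl4. The probe sets of Myl4 ran in opposite directions here: in the fit over all probe sets the difference was 1.43 ± 0.46 for the bright set (limma adjusted p = 0.183) and -1.42 ± 0.28 for the dim one (limma adjusted p = 0.0143), so only the dim set of Myl4 passed, against the direction of the bright one. At 6 h, 0 of 9 passed and 0 had an unadjusted p under 0.05, against 2.15% of all genes, and all 9 differences were below 0, with a median of -0.36.

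The difference of the allergen effect between times, 24 h minus 6 h, was below 0 for all 9 genes in AJ, with a median of -1.16. In AJ, 0 of 9 passed with limma, against 5.62% of all genes, and 4 had an unadjusted p under 0.05. In C3H all 9 differences were above 0, with a median of 0.70, and 0 of 9 passed with limma, against 0.88% of all genes, with 1 at an unadjusted p under 0.05. These contrasts share groups with those above and are not separate evidence.

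Among PBS lungs, Actc1 was higher in C3H than in AJ mice at both times, and the other 8 genes did not pass. The call at 24 h was lost with the replicate number as a block (limma adjusted p = 0.0559) and with a pseudocount of 1 (0.0537). Actc1 intensity was 1282, 1790, 1078, 1147 and 1073 in the C3H PBS 6 h arrays, against 545, 640.1, 619, 659 and 759 in the AJ PBS 6 h arrays. At 24 h it was 1338, 1352, 1018, 1238 and 1017 in the C3H PBS arrays, against 558, 588, 927, 519.8 and 504 in the AJ PBS arrays. The strains did not overlap at either time. Actc1 was 1.93-fold higher in C3H at 6 h (log2 fold change 0.95 ± 0.26, limma adjusted p = 0.027) and 1.94-fold higher at 24 h (log2 fold change 0.95 ± 0.26, limma adjusted p = 0.042). Of all genes, 4.45% passed between strains at 6 h (2.36% as higher in C3H) and 1.93% at 24 h (1.09% as higher). Strains did not overlap for 4.37% of all genes at 6 h and 4.27% at 24 h.

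The Actc1 call stood near the threshold. At 6 h it was lost without C3H PBS 6 h replicate 1 or 2 or AJ PBS 6 h replicate 1, 2 or 3, with limma adjusted p-values up to 0.0988. At 24 h it was lost in 9 of the 10 fits without 1 array, held only without AJ PBS 24 h replicate 3, and reached a limma adjusted p of up to 0.105. The fold change itself ran from 0.82 to 1.01 at 6 h and from 0.89 to 1.11 at 24 h over these fits. Myl4 groups did not overlap between strains at 6 h, and its log2 fold change was 0.66 ± 0.32 (limma adjusted p = 0.278). Nppa was lower in C3H in value, with log2 fold changes of -0.94 ± 0.67 at 6 h and -1.42 ± 0.67 at 24 h (limma adjusted p = 0.508 and 0.429).

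Among allergen lungs, comparisons chosen after the data had been seen set the strains and times side by side. At 24 h, 5 of 9 genes were higher in C3H than in AJ mice, against 7.13% of all genes in either direction and 3.07% as higher. With arrays centred on their medians, 62.6% of the calls over all genes were higher in C3H, in place of 43.1%. The 5 were Tnni3 (log2 fold change 1.66 ± 0.34), Myl4 (1.65 ± 0.32), Myh6 (1.43 ± 0.40), Actc1 (1.41 ± 0.26) and Myl7 (1.18 ± 0.31). The dim Myl4 set ran the other way, with means of 4.68 in C3H and 5.74 in AJ. With the mean of all probe sets, Myl4 was 0.29 (limma adjusted p = 0.429) and Myh6 0.97 (limma adjusted p = 0.113). Without AJ allergen 24 h replicate 1, 3 of 9 passed, and the same number passed without C3H allergen 24 h replicate 1. At 6 h, 0 of 9 passed with limma, against 9.31% of all genes, and 3 had an unadjusted p under 0.05. Actc1 passed there without AJ allergen 6 h replicate 5 or without C3H allergen 6 h replicate 2.

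Between times in AJ allergen lungs, 3 of 9 genes were lower at 24 h than at 6 h, Myl7 by -1.28 ± 0.31, Tnni3 by -1.22 ± 0.34 and Myl4 by -1.06 ± 0.32 on the log2 scale, against 19.1% of all genes in either direction and 6.98% as lower. With arrays centred on their medians, 44.8% of the calls over all genes were higher at 24 h, in place of 63.5%. The count was 1 without AJ allergen 24 h replicate 1 or AJ allergen 6 h replicate 5, and 5 without AJ allergen 24 h replicate 5 or AJ allergen 6 h replicate 1. With the mean of all probe sets, the Myl4 log2 fold change was -0.42 and did not pass (limma adjusted p = 0.148). In C3H allergen lungs 0 of 9 passed with limma, against 20.8% of all genes, and 2 had an unadjusted p under 0.05. There, 2 passed without C3H allergen 24 h replicate 4 and 1 without replicate 5. Between times in PBS lungs, 0 of 9 passed with limma in AJ, against 5.37% of all genes, and 1 had an unadjusted p under 0.05. In C3H PBS lungs 0 of 9 passed, against 3.21% of all genes, and 0 had an unadjusted p under 0.05.

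**Figure D3:**
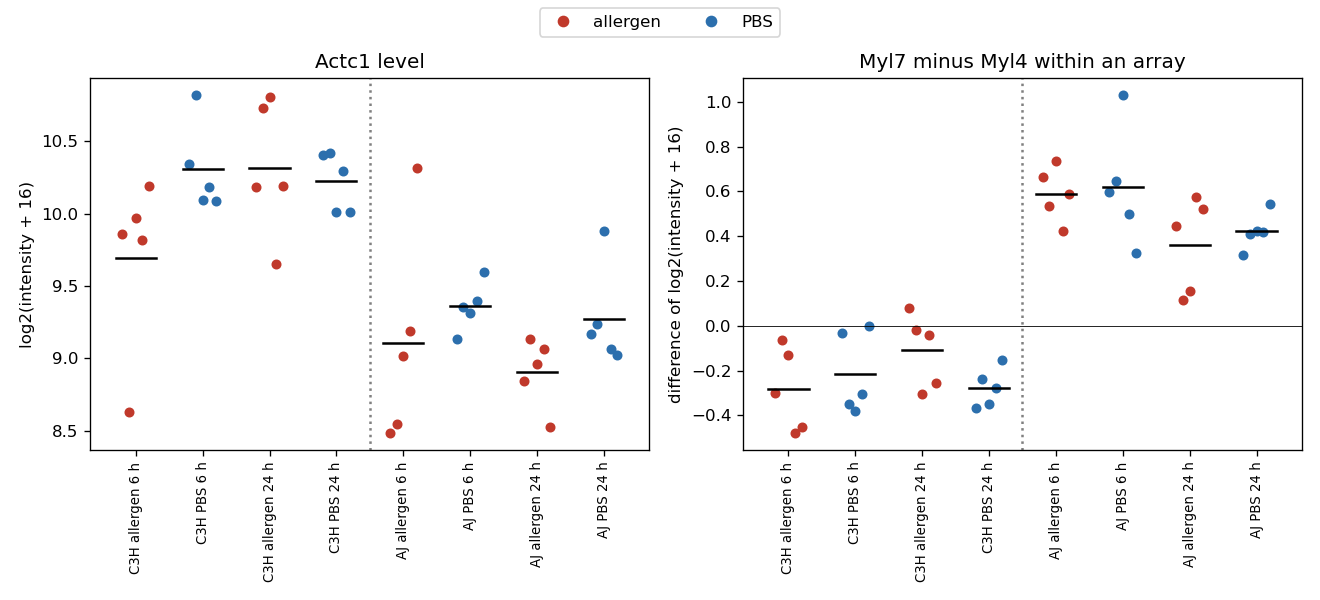
Left, the Actc1 level as log2(intensity + 16), and right, the difference of Myl7 minus Myl4 on that scale within each array, both on the vertical axis. The horizontal axis gives the 8 groups, C3H left of the dotted line and AJ right of it. Points are arrays and bars group means. Actc1 does not overlap between strains among PBS arrays of a time, and the Myl7 minus Myl4 difference is at most 0.08 on any C3H array and at least 0.11 on any AJ array.

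The 9 genes varied widely between arrays of the same group. Their residual SD on the log2 scale ran from 0.42 for Pln to 1.13 for Nppa, against a median of 0.24 over all genes tested. Between 93.0% and 99.7% of genes had a smaller residual SD than a given member. In AJ at 6 h the median SD of the 9 genes was 0.86 with allergen and 0.18 with PBS, and it was larger with allergen for 9 of 9. In AJ at 24 h it was 0.70 with allergen and 0.44 with PBS, larger with allergen for 6 of 9. Single arrays set these values. Without AJ allergen 6 h replicate 5 the median SD with allergen was 0.35, and without AJ allergen 24 h replicate 1 it was 0.29, larger than with PBS for 6 and 0 of the 9. Without AJ PBS 24 h replicate 3 the PBS value was 0.18, and the SD was larger with allergen for 9 of 9.

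In C3H at 6 h the median SD was 0.56 with allergen and 0.33 with PBS, larger with allergen for 7 of 9, and at 24 h it was 0.63 with allergen and 0.27 with PBS, larger with allergen for 9 of 9. Without C3H allergen 6 h replicate 2 the allergen value was 0.21, larger than with PBS for 1 of 9. The PBS value was 0.20 without C3H PBS 6 h replicate 2 and 0.15 without C3H PBS 24 h replicate 3. The share of all genes with the larger SD in allergen arrays was 52.1% in AJ at 6 h, 44.1% in AJ at 24 h, 43.8% in C3H at 6 h and 61.7% in C3H at 24 h. The members move together, so these counts are not 9 separate observations, and no test was made of them.

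Arrays deviated from their group mean in most of the genes at once. AJ allergen 6 h replicate 5 was the highest of its group for all 9 genes and AJ PBS 24 h replicate 3 for 8. The lowest of their groups were AJ allergen 6 h replicate 1, C3H allergen 6 h replicate 2 and C3H PBS 24 h replicate 3 for 8 genes each, and AJ allergen 24 h replicate 1 for 7. Over 36 gene pairs, Pearson's r of these deviations across the 40 arrays ran from 0.39 to 0.95, with a median of 0.75. Without AJ allergen 6 h replicate 5 it ran from 0.03 to 0.93 over 39 arrays, with a median of 0.65. Against the mean of the other 8 genes, r was highest for Myl7 (0.95) and Myl4 (0.94) and lowest for Sln (0.55). The values of an array share its RNA and its scaling, so these correlations describe the arrays.

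**Figure D4:**
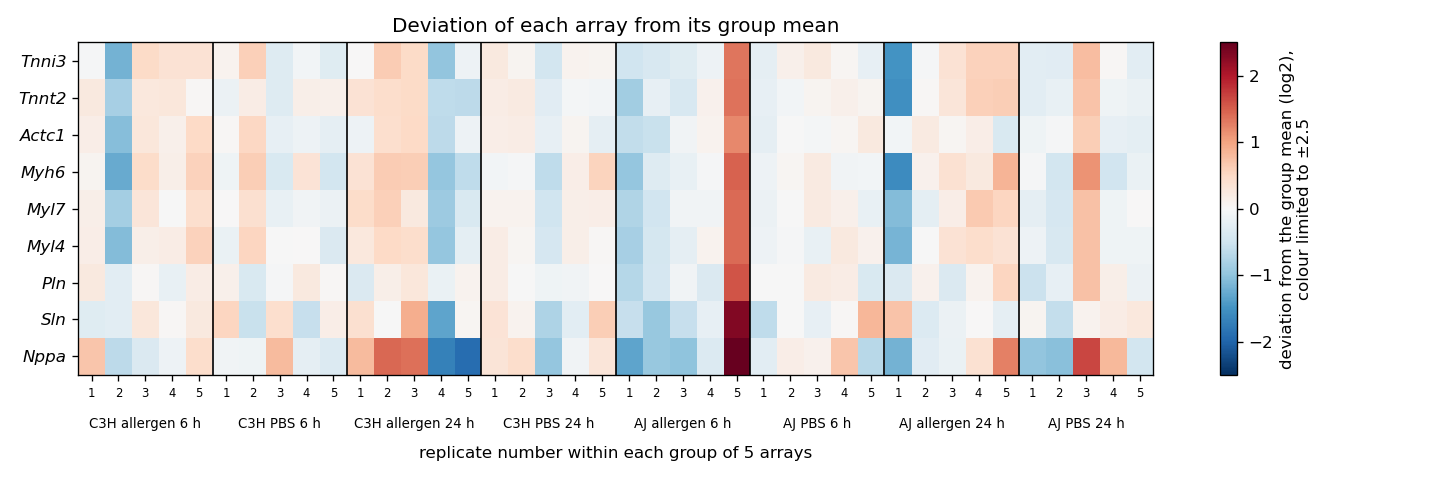
Deviation of each array from the mean of its group, on the log2 scale, for the 9 genes (rows) and the 40 arrays (columns, 5 in each of the 8 groups, with replicate numbers). Red is above and blue below the group mean, with colour limited at 2.5. Columns tend to have a single colour, and AJ allergen 6 h replicate 5 is the deepest red.

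Outside the 9, the gene whose deviations were most like the mean of the members was Tnnc1, troponin C of slow and cardiac muscle, with r = 0.92 over 40 arrays. Atp2a2, the calcium pump that Pln and Sln inhibit, followed with 0.84. Next were Mybpc3, cardiac myosin-binding protein C, with 0.81, and Casq2, the calcium-binding protein of the stores, with 0.80. The others of the first 15 were Myoz2, Ryr2, Ankrd1, Myom2, Sh2b3, Nppb, Lmod2, Fxyd1, Popdc2, Ndrg4 and Pgam2, with r between 0.79 and 0.63. Without removing group means, the first 5 were Atp2a2 (0.89), Tnnc1 (0.87), Myoz2 (0.85), Casq2 (0.85) and Ryr2 (0.80). Leaving out the 2 arrays farthest from the median of the members' mean, r of the deviations was 0.88 for Tnnc1 and 0.45 for Pgam2.

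Other genes of the cardiac cell, not all of them particular to heart, were read as lists. They are set beside the 3.28% of all genes that passed as lower and the 7.84% that passed in either direction in AJ at 24 h. There, 7 of 16 measured genes of the sarcomere and Z disc fell with allergen and 0 rose, with a list median of -0.82. They included the titin cap Tcap (-1.63 ± 0.43), the Z disc proteins Ldb3 (-1.28 ± 0.29) and Actn2 (-1.19 ± 0.28), and Tnnc1 (-1.10 ± 0.32). Of 10 calcium-handling genes 2 fell, Casq2 (-0.80 ± 0.23) and Atp2a2 (-0.76 ± 0.19), with a list median of -0.47. Of 12 genes of striated muscle energy metabolism 6 fell, with a list median of -1.49, among them Pgam2 (-2.22), Cox8b (-1.89), Ckmt2 (-1.74) and the fatty acid carrier Fabp3 (-1.71). Striated muscle includes skeletal muscle. In AJ PBS lungs, Cox8b and Fabp3 rose at 24 h against 6 h, by 1.71 and 1.31, where 0 of the 9 members passed. The r of this list's deviations with the members' mean was 0.58, and 0.34 without the 2 farthest arrays. For single sarcomere genes it was 0.50 for Tcap, 0.54 for Ldb3 and 0.62 for Actn2, against 0.92 for Tnnc1. The mean of the sarcomere list in AJ PBS lungs was 7.06 at 6 h and 7.49 at 24 h, and the times overlapped. It was 6.15 and 7.78 for the 20 skeletal muscle genes read below, and 8.61 and 8.71 for the 9 members. The part of skeletal muscle in the 7 sarcomere genes that fell was not tested.

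Of 5 ventricle-enriched genes 1 fell in AJ at 24 h, the beta myosin heavy chain Myh7 (-0.94). Over the 40 arrays, r of the deviations of Myh7 with the members' mean was -0.004, beside a median of 0.11 for the genes of this list. The list ran from -0.15 for Irx4 to 0.66 for Nppb, and Nppb had 0.45 without the 2 farthest arrays. Of 7 measured genes for atrial channels, connexins and peptide enzymes, 1 rose and 0 fell. It was Corin, the protease that activates the Nppa product, which rose by 1.05 ± 0.21 at 24 h and by 1.14 ± 0.21 at 6 h in AJ. Of 9 measured cardiac transcription factors 0 passed in AJ at 24 h with limma and 2 had an unadjusted p under 0.05, with a list median of -0.06.

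In AJ at 6 h and in C3H at 6 h and 24 h, 0 of the 16 sarcomere genes and 0 of the 10 calcium-handling genes passed in allergen against PBS with limma, beside 19%, 7.62% and 3.24% of all genes. With lists of this size, counts of 0 are near such shares in C3H, and no difference between the groups was tested on the lists. Of the 7 atrial channel, connexin and peptide enzyme genes, 2 rose in AJ at 6 h, Corin and Gja1, 1 rose in C3H at 6 h, Gja1, and 0 passed in C3H at 24 h, where 3 had an unadjusted p under 0.05. At an unadjusted p under 0.05 the calcium-handling list had 2 genes in C3H at 6 h, 1 in C3H at 24 h and 0 in AJ at 6 h, and the sarcomere list had 0 in each. Tnnc1 had log2 fold changes of -0.03 ± 0.32 in AJ at 6 h, -0.60 ± 0.32 in C3H at 6 h and 0.18 ± 0.32 in C3H at 24 h. Atp2a2 had -0.07 ± 0.19, -0.44 ± 0.19 and 0.03 ± 0.19 in the same comparisons.

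Markers of other tissues were read beside the members in AJ at 24 h, where 3.28% of all genes passed as lower. All 20 measured skeletal muscle genes had fold changes below 0, with a median of -1.26, and 1 fell, the fast-muscle calcium pump Atp2a1 (-1.68 ± 0.53), a share near that of all genes, while 11 had an unadjusted p under 0.05. The mean of the skeletal list was 5.23 to 7.55 in the AJ allergen 24 h arrays and 6.89 to 8.41 in the AJ PBS 24 h arrays. All 10 measured adipose genes were below 0 as well, with a median of -1.19, and 2 fell, Thrsp (-2.92 ± 0.74) and the lipid droplet protein Cidec (-1.14 ± 0.35). The adipose mean was 5.53 to 8.18 with allergen and 7.31 to 9.37 with PBS. Both lists overlapped between the groups. The mean of the 9 cardiac genes was 6.77 to 8.08 with allergen and 8.31 to 9.51 with PBS. The SD of these means with allergen and with PBS was 0.84 and 0.62 for the skeletal list. It was 0.96 and 0.77 for the adipose list, and 0.52 and 0.47 for the cardiac genes, so overlap does not compare the lists on an equal footing. The part of the skeletal and adipose lists in the cardiac result was not tested.

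The skeletal list was as low in the AJ PBS 6 h arrays, at 5.18 to 7.68, as in the AJ allergen 24 h arrays, and the mean of the 9 cardiac genes in those PBS arrays was 8.40 to 8.77. Across the 40 arrays, r of the deviations with the members' mean was 0.26 for the skeletal list and -0.02 without the 2 farthest arrays. It was 0.47 for the adipose list and 0.49 for smooth muscle, against 0.82 for the calcium-handling list and 0.74 for the sarcomere list. Without the same 2 arrays it was 0.35 for adipose, 0.45 for smooth muscle, 0.77 for calcium handling and 0.53 for the sarcomere list. Of 10 smooth muscle genes, 0 passed in AJ at 24 h with limma and 3 had an unadjusted p under 0.05, with a median of -0.06. Of 7 mesothelium genes 3 fell and 1 rose, of 10 lung parenchyma genes 2 fell, and of 6 cartilage and 6 thymus genes 0 passed with limma, with 0 and 1 at an unadjusted p under 0.05.

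**Figure D5:**
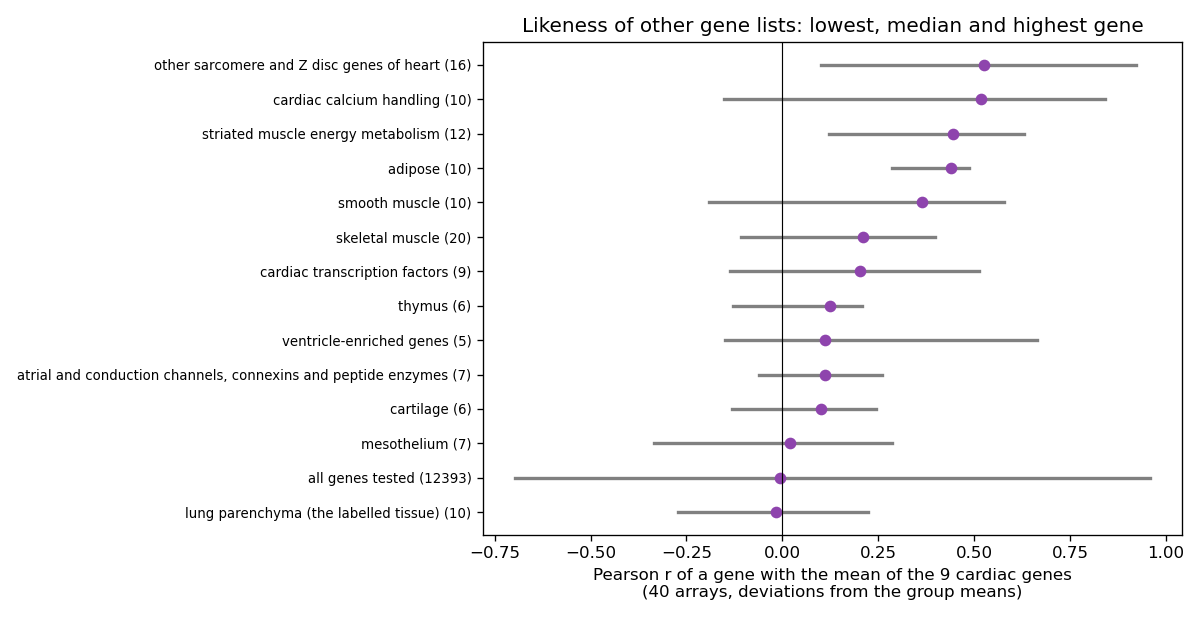
Pearson's r of single genes with the mean of the 9 cardiac genes over 40 arrays, as deviations from the group means, on the horizontal axis. Each row is a list with its number of measured genes, the grey line runs from its lowest to its highest gene and the point is its median; the row of all genes tested includes the 9 members. The sarcomere and calcium-handling lists have medians of 0.53 and 0.52, against 0.21 for skeletal muscle and -0.01 for all genes tested.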

How the data were processed

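Lung RNA of 40 samples was measured on 1-colour arrays, and the deposited table holds 1 linear intensity per probe set and array. The software that made these values is not given in the sources used here. Each array's mean, after trimming 2% of probe sets at each end, was 150.036 to 150.046, so the authors' deposited intensity values had been scaled to a common trimmed mean. GEO's platform table named 1 gene for 20380 probe sets, several for 691 and no gene for 1555, beside 64 control sets.

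Values were taken as log2(intensity + 16), which understates changes of dim genes, and 13.6% of the tested values lay below 16. No detection calls were used here. The means of the 8 groups were estimated for 12393 genes over the 40 arrays by limma 3.58.1 under R 4.3.3, with 32 degrees of freedom left for the residuals and 4.62 for the prior. Tests used lmFit with eBayes and were two-sided, with Benjamini-Hochberg adjustment per contrast and a threshold of 0.05. The test was checked on simulated data. The replicate numbers were checked for pairing and did not pair the arrays. The 9 members, the gene lists and the motifs were chosen with earlier results of these data known. Named genes are the 9 members, up to 4 passing genes per list and comparison with the largest fold change, the 15 and 5 genes most like the members' mean, and defining genes of other tissues; not all are printed. Groups came from the titles, and the strain and time comparisons among allergen arrays were added after seeing the data. Alternatives changed the scaling, pseudocount, filter, probe set rule, samples fitted, replicate block and arrays. Promoter sequences are from RefSeq.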

Additional observations from a re-analysis of the deposited data

Results flagged for a closer look

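In 19 of 72 combinations of a cardiac gene and a group, the highest or lowest array stood apart from the other 4 by more than Dixon's 95% critical value allows, where chance flags about 1 in 20 groups. The genes move together across arrays, so these are not 19 separate observations. All values here are log2(intensity + 16).

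AJ allergen 6 h replicate 5 stood high for Nppa (11.84, with 7.91 next), Sln (10.55, with 8.03 next), Tnni3 (9.16, with 7.70 next) and Pln (8.74, with 7.09 next). Outside the members this array was also highest for Tnnc1, at 9.61 against 8.23 for the next array of its group. The excess was not confined to cardiac genes. This array was highest for Ckm (10.95, with 10.12 next), Mb (11.02, with 9.98 next), skeletal Myh8 (7.22, with 5.09 next) and adipose Adipoq (8.56, with 8.39 next). It was not highest for skeletal Myh2 (7.97, with 8.33 on another array) or adipose Ucp1 (8.24, with 8.88 on another). AJ allergen 24 h replicate 1 stood low for Tnnt2 (6.33, with 7.89 next) and Myl4 (6.87, with 8.03 next).

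AJ PBS 24 h replicate 3 stood high for Tnnt2 (9.32), Myh6 (10.10), Actc1 (9.88) and Myl4 (10.12), and AJ PBS 24 h replicate 2 stood low for Sln (8.37). C3H allergen 6 h replicate 2 stood low for Tnnt2 (7.51), Myh6 (7.23), Actc1 (8.63) and Myl4 (8.16). C3H PBS 24 h replicate 3 stood low for Tnni3 (7.90), Myl7 (8.85) and Myl4 (9.19), and C3H PBS 6 h replicate 3 stood high for Nppa (7.66). The cause of these deviations was not tested.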

How the results depend on the processing

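The count of 4 members passing in AJ at 24 h with allergen was 2 with the mean of all probe sets and 3 to 4 without 1 array; Myh6 was also lost with a pseudocount of 64 (limma adjusted p = 0.0502) and with a fit of the compared groups alone (0.0859), where Sln passed (0.00663). Without the arrays lettered b it was 6, with Pln and Sln added, and the strain difference of the allergen effect at 24 h had 1 (Myl7) in place of 0 (0 to 2 without 1 array). Both lettered arrays belong to 6 h groups, so no array of these 24 h comparisons was left out. The fold changes of Pln (-0.63) and Sln (-1.09) stayed the same, and only the spread estimated over all groups changed. Of all 12393 genes, 976 passed in AJ at 24 h without the b arrays and 1003 with the mean of all probe sets, in place of 971. The Actc1 strain count in PBS lungs at 24 h was 0 with a pseudocount of 1 and 0 with the replicate number as a block (limma adjusted p = 0.0559), and 0 to 1 without 1 array at either time.

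The block changed no other count. The numbers share no stated source, same-number correlations ran from -0.26 to 0.26 over all genes, and at most 2 of 5 arrays correlated best with their own number. Among allergen lungs, C3H against AJ gave 1 at 6 h without the b arrays (0 to 1 without 1 array), and at 24 h 3 with the mean of all probe sets and 3 with the compared groups alone (3 to 5). For 24 h against 6 h, AJ gave 5 with median centring, 1 with the compared groups alone and 1 without the b arrays (1 to 5), and C3H gave 1 with median centring and 2 without the b arrays (0 to 2). Of all 12393 genes, 2044 passed in AJ with median centring, 916 as higher, in place of 2373 and 1508. In C3H it was 2579 with median centring, 1725 as higher, in place of 2581 and 1263. Without the b arrays 2086 passed in AJ and 2543 in C3H.

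Fold changes that did not pass changed sign as follows. In AJ at 6 h without the b arrays, Nppa was -0.46, Pln -0.37 and Sln -0.42. In C3H at 6 h, Sln was 0.015 with quantile normalization, 0.076 with the mean of all probe sets and 0.088 without the b arrays. In C3H at 24 h, Actc1 was -0.021 with quantile normalization and Myl4 -0.40 with the mean of all probe sets. Without 1 array, AJ 6 h values ran from -0.47 to 0.083 for Tnnt2, -0.55 to 0.012 for Myl4, -0.46 to 0.77 for Nppa, -0.37 to 0.20 for Pln and -0.42 to 0.39 for Sln. Sln in C3H at 6 h ran from -0.16 to 0.12. C3H 24 h values ran from -0.25 to 0.15 for Tnni3, -0.00091 to 0.28 for Tnnt2, -0.040 to 0.25 for Actc1 and -0.058 to 0.31 for Myl4. No cause of these changes was tested. Over all genes, median centring moved the share of higher calls by more than 10 percentage points in 11 of 16 comparisons, at most by -26.2 points in C3H against AJ with allergen at 6 h, where the median of all genes shifted by -0.10, and quantile normalization did so in 1. With allergen in AJ at 24 h the share was 59.1% with median centring, in place of 58.2%. Intensities near the pseudocount limit what dim probe sets can show.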

Other observations

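Within an array, the log2 difference of Myl7 minus Myl4 separated the strains completely. It ran from -0.48 to 0.08 on the 20 C3H arrays, with a median of -0.27, and from 0.11 to 1.03 on the 20 AJ arrays, with a median of 0.51. Of the 36 pairs among the 9 genes, this was the only 1 whose strains did not overlap. It was noticed after the values were seen and was not tested, and whether sequence differences between the strains under the probes take part was not tested either.

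In AJ PBS lungs, 4 of 20 measured skeletal muscle genes rose at 24 h against 6 h and 0 fell, beside 5.37% of all genes in either direction. The mean of the list overlapped between the times, at 6.89 to 8.41 at 24 h and 5.18 to 7.68 at 6 h, while the mean of the 9 cardiac genes was 8.31 to 9.51 at 24 h and 8.40 to 8.77 at 6 h. The 4 were Actn3 (log2 fold change 2.24 ± 0.66), Atp2a1 (1.72 ± 0.53), Ryr1 (1.43 ± 0.37) and Cacna1s (0.91 ± 0.23), by limma at adjusted p-values of 0.0367, 0.0464, 0.0176 and 0.0164, and the times overlapped for each.

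Gja1, the connexin of ventricle, atrium and many other cell types, rose with allergen at 6 h in AJ by 1.07 ± 0.17 and in C3H by 0.63 ± 0.17 (limma adjusted p = 9.53e-06 and 0.0166), in lungs where 0 of the 9 cardiac genes passed and 0 and 5 of them had an unadjusted p under 0.05. Krt19, a keratin of mesothelium and airway epithelium, fell at 6 h in AJ by 1.05 and in C3H by 0.66 on the log2 scale (limma adjusted p = 3.68e-06 and 0.00647).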
